A study of Mus musculus with 2 samples.

Results

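The BCL2 family of survival and death genes was examined in Th1 cells grown from naïve CD4 T cells labelled as WT or as Chi3l1 KO. The 10 genes were taken by symbol from the 24421 genes of the deposited tables, and not by a rule on their measured values. Earlier results of these data were known when they were chosen. They are the anti-apoptotic genes Bcl2, Bcl2l1 and Mcl1, the effector genes Bax and Bak1, and the BH3-only genes Bcl2l11, Bid, Bad, Bbc3 and Pmaip1. All 10 passed the filter on low values (a deposited log2 value of 1 or more in either library), and 9 of them, all except Pmaip1, stood at 8 or above in both libraries. Genes at 8 or above in both libraries are called well expressed below.

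Both libraries came from young adult mice on the C57BL/6J background, one labelled Chi3l1+/+ (WT) and one labelled Chi3l1-/- (Chi3l1 KO), with 1 library per labelled genotype. The study describes its Chi3l1 KO mice as a total knockout, apart from its line in which CD4-Cre deletes the floxed gene. Naïve CD4 T cells of each genotype were activated through CD3 and CD28 and skewed toward Th1 with IL-12, IL-2 and an antibody against IL-4, and the day of harvest and the number of mice behind each library were not given in the sources used here. With n = 1 per genotype there is no replicate error and no test, so every difference below is a difference between these 2 libraries. The intervals given are 95% intervals of read counting alone, and take reads as independent.

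The targeted gene did not follow the labels. Chi3l1, listed as Chil1, had a log2 value of 0.94 in the library labelled WT and 6.66 in the library labelled KO, which corresponds to about 1 and 103 reads. A value per gene does not show which exons were read, so it cannot be seen whether these reads lie outside the disrupted part. All directions below are given by the labels, and would all turn if the labels of the 2 libraries were exchanged, which was not tested. Ifng, the defining cytokine gene of Th1 cells, had log2 values of 11.72 in the library labelled WT and 13.04 in the library labelled KO. The unit, inferred from the values, is the log2 of 1 plus a normalized count, and the rebuilt reads summed to 70562593 in the library labelled WT and 62883873 in the library labelled KO. T cell markers were present in both libraries, with Cd3e at 14.94 and 14.86 and Cd4 at 14.32 and 13.94, and the Th1 gene Tbx21 was at 13.98 and 13.72. Markers of other cells were at low levels, and some of their lists differed between the libraries. The summed normalized counts of 4 B cell markers were 847 and 1560. Those of 6 neutrophil markers were 80.3 and 4.79, with 5 of the 6 listed at 0 in the library labelled KO. The sums were 39623 and 48095 for 4 Th1 genes, 812 and 807 for 2 CD8 T cell markers, 529 and 460.0 for 5 monocyte or macrophage markers, 17.4 and 70.6 for 4 dendritic cell markers, and 16.4 and 14.4 for 2 NK cell markers. The CD8 T cell, monocyte or macrophage and NK cell lists each held genes that went in both directions. The log2 fold change (labelled KO minus labelled WT) also moved with the GC content of the transcript, with a Spearman rho of -0.54 across 8579 well-expressed genes. Genes are not independent replicates, and the part of either in the differences below was not tested beyond the values printed beside them.

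Proteins of the BCL2 family control whether the outer mitochondrial membrane is opened, the step that commits a cell to intrinsic apoptosis. BAX and BAK form the pores, BCL2, BCL-XL (encoded by Bcl2l1) and MCL1 hold them back, and BH3-only proteins, such as BIM (Bcl2l11), PUMA (Bbc3), NOXA (Pmaip1), BAD and BID, bind the guardians or the effectors when a cell is stressed or deprived of growth signals. In T cells, BCL2 and MCL1 are known to sustain survival under cytokines of the common gamma chain family, and BIM is known for the death of activated T cells once antigen and cytokine are gone.

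What these proteins share is the BH3 helix, a short segment by which a member docks into the groove of another. The stretch of coding sequence that holds it is shown for the 9 members below so that the shared core can be seen beside the differing levels. Each run is 36 bases of coding strand from GENCODE M21 (GRCm38), 5′ to 3′, read in frame. Capitals mark the 18-base core that was searched for in both the survival and the death genes: a leucine codon (CTN, or TTA and also TTG), any 3 codons, then a codon of glycine (GGN), of alanine (GCN) or of serine (TCN, or AGT and also AGC), then an aspartate codon (GAT or GAC). Only the coding strand and its reading frame were searched.
Bcl2: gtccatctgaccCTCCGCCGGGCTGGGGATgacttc
Bcl2l1: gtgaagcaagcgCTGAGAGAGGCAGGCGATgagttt
Mcl1: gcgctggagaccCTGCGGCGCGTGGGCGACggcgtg
Bax: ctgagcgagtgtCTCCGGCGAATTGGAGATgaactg
Bak1: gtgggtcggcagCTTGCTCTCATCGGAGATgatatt
Bcl2l11: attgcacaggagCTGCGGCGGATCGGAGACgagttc
Bid: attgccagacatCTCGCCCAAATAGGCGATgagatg
Bad: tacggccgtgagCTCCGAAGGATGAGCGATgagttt
Bbc3: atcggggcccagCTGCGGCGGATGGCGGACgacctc
The window of Bcl2 lies at chr1:106712578-106712613 on the minus strand, that of Bcl2l1 at chr2:152829700-152829735 (minus) and that of Mcl1 at chr3:95659424-95659459 (plus). The windows of the effectors lie at chr7:45466000-45466035 for Bax and chr17:27022534-27022569 for Bak1, both on the minus strand. Those of the BH3-only genes lie at chr2:128147138-128147173 for Bcl2l11 (plus), chr6:120897292-120897327 for Bid (minus), chr19:6950780-6950815 for Bad (plus) and chr7:16313761-16313796 for Bbc3 (plus). Each of the 9 lies within 1 coding exon, and in each of the 9 coding sequences the pattern occurred exactly 1 time. The pattern itself is loose, since 33.9% of 21519 mouse genes with a complete coding sequence hold at least 1 match in their longest coding sequence. A match is a description of the letters and does not show binding. The fifth codon of the core is one of glycine in 7 of the 9 members, while Bad has a serine codon there and Bbc3 an alanine codon. Pmaip1 is named without a sequence.

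No member reached a 2-fold difference between the libraries in either direction. Among all 15541 genes that passed the filter, 7.37% were at least 2-fold higher and 9.12% at least 2-fold lower in the library labelled KO, most of them at low levels. For the 8886 well-expressed genes, a group that holds 9 of the 10 members, these shares were 0.461% and 0.743%, so a count of 0 among the members is near this background. In these bulk samples, a lower value from fewer cells of a type and one from less RNA per cell cannot be told apart. At 1.5-fold, 1 member (Bak1) was lower and none was higher, beside 16.2% lower and 13.4% higher over all genes and 6.29% lower and 3.95% higher over the well-expressed genes. The members split evenly by direction, with 5 higher and 5 lower as deposited, 6 and 4 when scaled to Actb, and 7 and 3 with the GC trend removed. Their median log2 fold change was 0.045, beside -0.009 over all genes that passed the filter. Both directions occurred within each of the 3 classes as deposited, with 1 higher and 2 lower among the anti-apoptotic genes, 1 and 1 among the effectors, and 3 and 2 among the BH3-only genes.

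**Figure D1:**
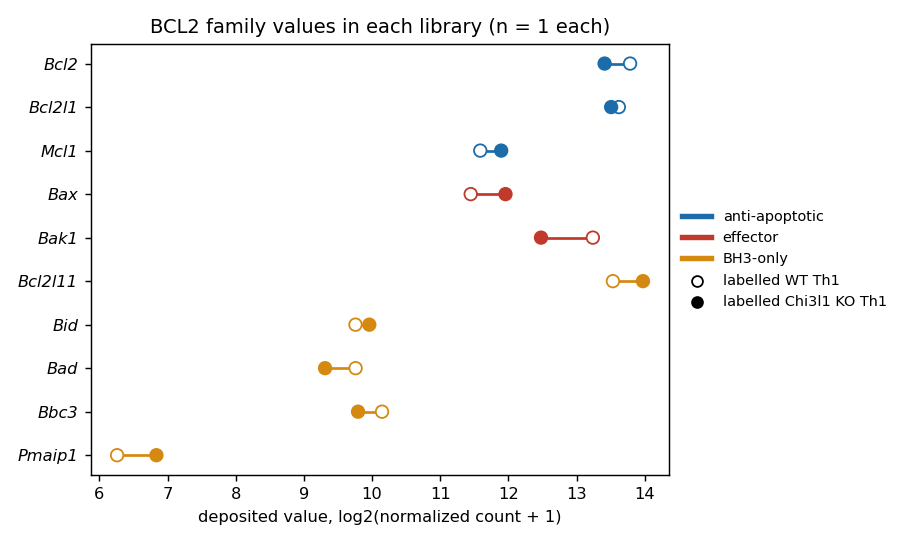
Deposited value, as log2 of the normalized count plus 1, of each member in the library labelled WT Th1 (open circles) and the library labelled Chi3l1 KO Th1 (filled circles), coloured by class, with 1 library each and no error bars. The values run from 6.26 for Pmaip1 in the library labelled WT to 13.975 for Bcl2l11 in the library labelled KO, and the longest line joins the values of Bak1.

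Among the anti-apoptotic genes, Bcl2 was lower and Mcl1 higher in the library labelled KO, and Bcl2l1 was nearly level. Bcl2, which lies on the minus strand of chromosome 1 (GRCm38, 106538178 to 106714274), had a log2 value of 13.79 in the library labelled WT and 13.41 in the library labelled KO. Its log2 fold change of -0.37 had a counting interval from -0.41 to -0.34, a 1.30-fold lower normalized count. Bcl2 rests on 14561 and 11251 rebuilt reads, so counting error is small beside the difference, and 18.3% of the 2669 genes with a mean log2 value of 12 or more had a lower fold change. With the GC trend removed Bcl2 had -0.50, and 3.96% of 2602 genes of its level had a lower value. It had -0.25 under quantile normalization and -0.26 when scaled to Actb. An exon of Bcl2 overlaps one of D630008O14Rik on the opposite strand by 497 bases, and the reads of that stretch were not measured.

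Bcl2l1 (chromosome 2, 152780668 to 152831728, minus strand) had log2 values of 13.62 and 13.51, a log2 fold change of -0.11 with a counting interval from -0.15 to -0.08. This was close to the median of -0.10 for genes of its level, and its sign turned when the samples were scaled to Actb (0.002991) or the GC trend was removed (0.09). The latter depended on the transcript taken for GC content, with values from -0.16 to 0.10 over its 8 coding transcripts. Long and short forms with opposite known roles in survival share the 1 deposited value. Mcl1 (chromosome 3, 95658788 to 95663176, plus strand), whose protein turns over quickly, had 11.59 and 11.90. Mcl1 had a log2 fold change of 0.31, with 0.24 to 0.37 as its counting interval, and 81.9% of the 3390 genes with a mean log2 value from 10 to below 12 had a lower one. After GC removal Mcl1 had 0.24, and from 0.24 to 0.77 over its 2 coding transcripts.

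The effectors differed in opposite directions, and Bak1 had the largest difference of the 10 members as deposited, while Bax had the largest with the GC trend removed. Bak1 (chromosome 17, 27019810 to 27029009, minus strand), which sits on mitochondria in healthy cells, had a log2 value of 13.24 in the library labelled WT and 12.48 in the library labelled KO. The log2 fold change of -0.76 had a counting interval from -0.81 to -0.71 and equals a 1.70-fold lower normalized count. Of the 2669 genes of its level, 2.32% had a lower fold change, and the middle 95% of them ranged from -0.75 to 0.47. With the GC trend removed, Bak1 had -0.51, which is under 1.5-fold, and from -0.51 to -0.39 over its 2 coding transcripts. It then lay inside the middle 95% of 2602 genes of its level, from -0.56 to 0.47, and 3.54% of them had a lower value.

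An exon of Bak1 overlaps one of Ggnbp1 on the opposite strand by 257 bases, and Ggnbp1 had log2 values of 9.33 and 8.69, a log2 fold change of -0.635. Whether the authors' counting used strand is not given in the sources used here, so reads of the shared stretch cannot be told apart. The rebuilt reads were 9972 and 5893 for Bak1 and 661 and 426 for Ggnbp1, and their part in the shared stretch was not measured.

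Bax (chromosome 7, 45461697 to 45466898, minus strand), which moves from the cytosol to mitochondria when activated, had 11.45 in the library labelled WT and 11.96 in the library labelled KO. This log2 fold change of 0.51 (counting interval 0.44 to 0.58) equals a 1.42-fold higher normalized count, and 94.5% of the 3390 genes of its level had a lower one. Bax has a GC-rich transcript (63.55% in the longest coding transcript), and the trend removed from it pointed the other way, at -0.46. This is the value of the highest GC bin, with a median of 61.2%, which was held for all transcripts richer in GC. With the trend removed, Bax had 0.97, nearly 2-fold, and values from 0.82 to 0.97 over its 5 annotated coding transcripts. The middle 95% of GC-removed values of 3257 genes of its level ranged from -0.61 to 0.59, and 99.7% of them were below that of Bax. Bax was higher in the library labelled KO under all 5 alternatives tried. An exon of Bax overlaps one of Gm45808 on the same strand by 140 bases. Reads of that stretch cannot be told apart even by strand, and their part was not measured.

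**Figure D2:**
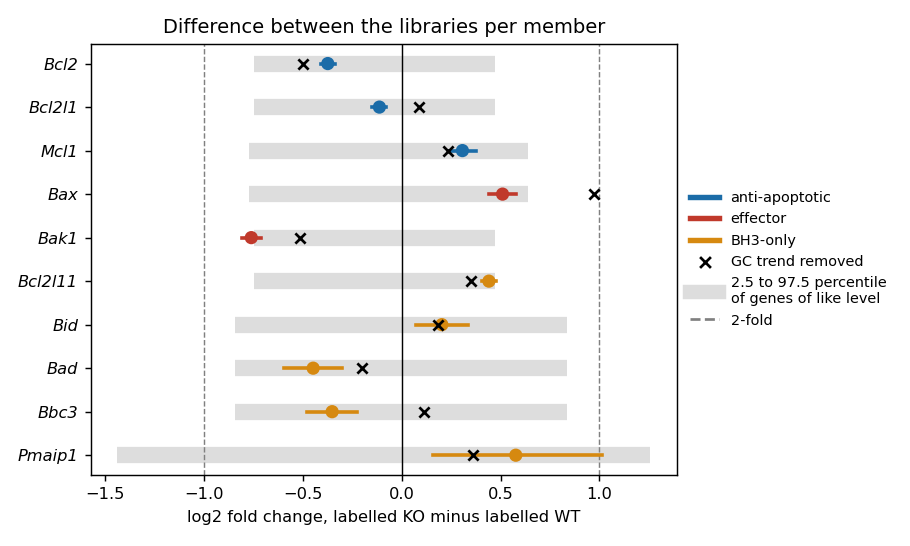
Log2 fold change of each member, labelled KO minus labelled WT, as deposited (circles) with the 95% interval of read counting (coloured bars), and after removal of the trend with GC content (crosses). Grey bars span the middle 95% of the deposited fold changes of genes in the same band of mean log2 value, to be read against the circles, and dashed lines mark 2-fold. Bak1 at -0.76 lies just outside its grey bar as deposited, the cross of Bax lies at 0.97, and the crosses of Bcl2l1 and Bbc3 lie on the other side of 0 from their circles.

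Of the BH3-only genes, Bcl2l11, Bid and Pmaip1 were higher and Bad and Bbc3 lower in the library labelled KO. Bcl2l11 (chromosome 2, 128126038 to 128162547, plus strand), which encodes BIM, had a log2 value of 13.53 in the library labelled WT and 13.975 in the library labelled KO. Bcl2l11 had a log2 fold change of 0.44, with 0.41 to 0.47 as its counting interval, a 1.36-fold higher normalized count, and 96.7% of the 2669 genes of its level had a lower one. The direction was the same under all 5 alternatives, with 0.35 after removal of the GC trend and 0.56 under quantile normalization.

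Bid (chromosome 6, 120891930 to 120916853, minus strand), which links death receptors and caspase-8 to mitochondria, had 9.76 and 9.96, a log2 fold change of 0.20 (counting interval 0.07 to 0.33). Genes with a mean log2 value from 8 to below 10 had a middle 95% from -0.84 to 0.83, so Bid lay well inside the range of genes of like level. Its exons overlap those of the neighbouring family gene Bcl2l13 on the opposite strand by up to 628 bases, and Bcl2l13 had -0.24.

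Bad (chromosome 19, 6941861 to 6951899, plus strand), whose protein is held in the cytosol by 14-3-3 proteins after phosphorylation, had 9.76 and 9.31. A log2 fold change of -0.45 had -0.60 to -0.30 as its counting interval, and the value was -0.20 after GC removal, with a range from -0.24 to 0.015 over its 8 coding transcripts that includes both signs. Bad shares up to 517 exonic bases with Gpr137 on the opposite strand, which had -0.16. Bbc3 (chromosome 7, 16308393 to 16318205, plus strand), the gene of PUMA and a direct target of p53, had 10.15 and 9.795. This is a log2 fold change of -0.35 (counting interval -0.48 to -0.23). At 65.2% GC it has the most GC-rich transcript of the members, and its value turned to 0.11 with the trend removed. As for Bax, the trend removed was that of the highest GC bin, which lies below this GC content.

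Pmaip1 (chromosome 18, 66458533 to 66465565, plus strand), the gene of NOXA, which binds MCL1 in particular, was the least abundant member. It had a log2 value of 6.26 in the library labelled WT and 6.84 in the library labelled KO, from about 78 and 117 reads. The log2 fold change of 0.577 had the widest interval, from 0.16 to 1.015. The middle 95% of the 2117 genes with a mean log2 value from 6 to below 8 spanned -1.44 to 1.26, so a difference of this size was common at this depth. Pmaip1 is also the most AT-rich member, with 42.1% GC, and had 0.36 after removal of the trend. Over the 10 members the log2 fold change and the GC content had a Spearman rho of -0.37, given as a description only.

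**Figure D3:**
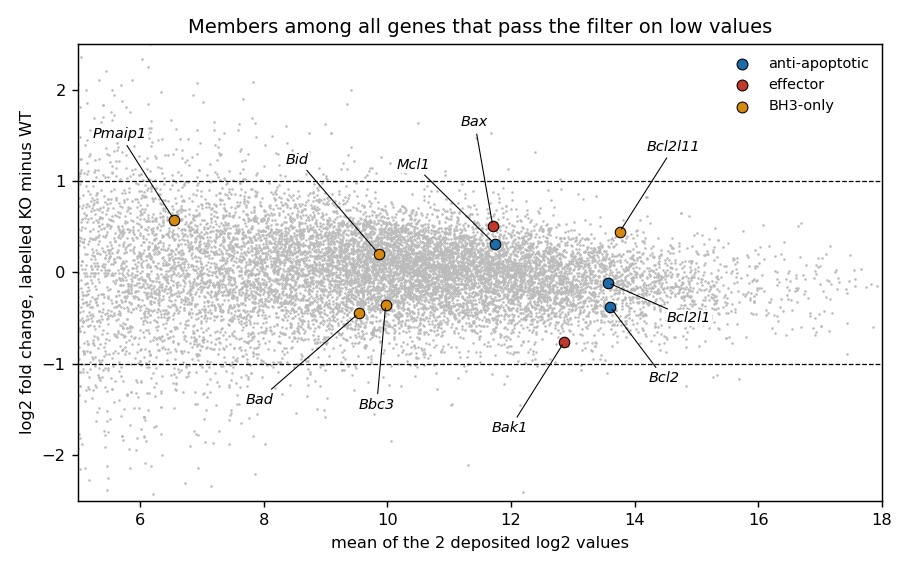
Log2 fold change (labelled KO minus labelled WT) against the mean of both deposited log2 values for genes that pass the filter on low values (grey), with the 10 members coloured by class and dashed lines at 2-fold. Of 15541 genes, 3521 lie outside the axes and are not drawn. All 10 members lie between the dashed lines, with Bak1 nearest to the lower one.

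Levels of different genes were compared per kilobase of the longest annotated coding transcript. On this scale Bcl2l1 was the most abundant member in both libraries, with 4906 normalized counts per kilobase in the library labelled WT and 4536 in the library labelled KO. In the library labelled WT it was followed by Bak1 (4053), Bax (2539), Bcl2l11 (2355) and Bcl2 (1964). In the library labelled KO the order after Bcl2l1 was Bax (3616), Bcl2l11 (3197), Bak1 (2391) and Bcl2 (1516). Mcl1 was the sixth member in both libraries with 900.4 and 1114, and Bid, Bad and Bbc3 lay between 394.8 and 624.5 in the library labelled WT and between 414 and 489 in the library labelled KO. Pmaip1 was last with 27.7 and 41.6. Without replicates the spread behind this order is unknown, and it depends on the length used: with the length of all annotated exons, Bak1 and not Bcl2l1 was first in the library labelled WT.

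Within the effectors the leading gene was exchanged. Bak1 made up 61.5% of the summed effector level per kilobase in the library labelled WT and 39.8% in the library labelled KO, and Bax made up the rest, 38.5% and 60.2%. Within the BH3-only genes, Bcl2l11 held 59.4% and 69.6% of the sum, while Bbc3 held 15.7% and 10.6% and Bad 14.2% and 9.001%. With the median length of the coding transcripts the shares of Bbc3 were 26.65% and 18.66%. Among the survival genes, Bcl2l1 held 63.1% and 63.3%, with Bcl2 at 25.3% and 21.2% and Mcl1 at 11.6% and 15.6%. With the length of all exons Mcl1 held 17.35% and 23.0%.

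**Figure D4:**
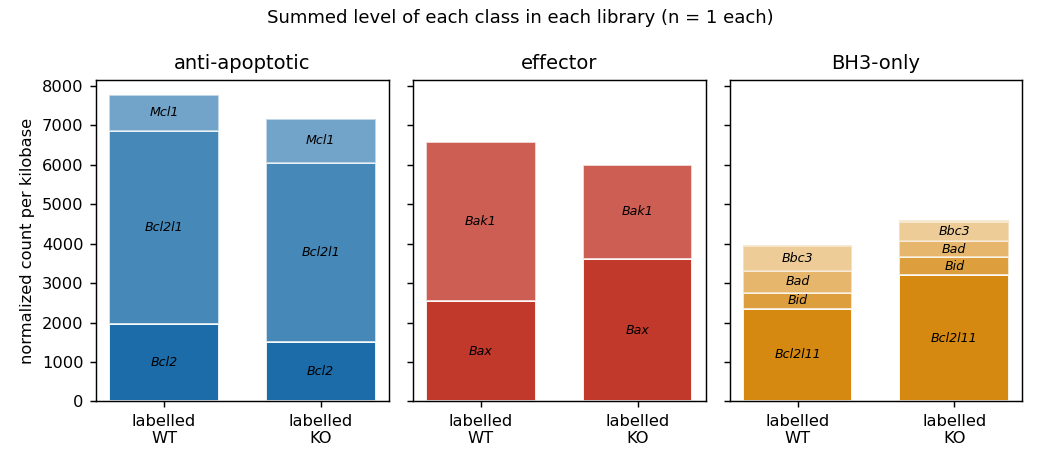
Normalized count per kilobase of the longest coding transcript, stacked by member within each class, in the library labelled WT and the library labelled KO (n = 1 each, no error bars, axis from 0). The summed survival genes go from 7770 to 7166, the summed effectors from 6592 to 6007 with Bax in place of Bak1 as the larger part, and the summed BH3-only genes from 3967 to 4596; Pmaip1 is too thin to be labelled.

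The balance of the classes was described by the ratio of the summed survival genes to the summed effector and BH3-only genes, per kilobase. This ratio was 0.736 in the library labelled WT and 0.676 in the library labelled KO. The change of the log2 ratio was -0.12 (counting interval -0.16 to -0.09), and -0.26 with the GC trend removed. As deposited, the library labelled KO had a larger sum of BH3-only genes and a smaller sum of survival genes. The smaller deposited sum of effectors worked the other way. This account of the effectors covers the deposited values only, since Bax had 0.97 and Bak1 -0.51 with the GC trend removed. The change of the deposited class balance was small and hung on the transcript length, being -0.119 with the median length of the coding transcripts and -0.0068 with the length of all exons. Against the BH3-only genes alone, the survival genes had a ratio of 1.96 and 1.56, and of 1.98 and 1.62 with the length of all exons. Against the effectors alone, the ratio was 1.18 and 1.19, and 0.896 and 0.990 with the length of all exons.

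Ratios of single partners within a library do not depend on the scaling between libraries by 1 factor, and their change does not depend on gene length. Of 8 pairs of a survival gene with a gene whose product it is known to bind, 4 were lower and 4 higher in the library labelled KO. The Bcl2/Bax ratio, often used as a summary of survival balance, was 0.774 per kilobase in the library labelled WT and 0.419 in the library labelled KO. Its log2 change of -0.88 had a counting interval from -0.96 to -0.81, and was -1.47 with the GC trend removed. The Bcl2/Bcl2l11 ratio went from 0.834 to 0.474, a log2 change of -0.815 with an interval from -0.86 to -0.77, and this value was nearly the same after GC removal (-0.85).

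Ratios to Bak1 went the other way. Mcl1/Bak1 went from 0.222 to 0.466, a log2 change of 1.07 with an interval from 0.99 to 1.15, the largest change in size among the 8 pairs as deposited and the one change past 2-fold. It was 0.75 after GC removal. Bcl2l1/Bak1 went from 1.21 to 1.90, a log2 change of 0.65 with an interval from 0.59 to 0.71, and 0.60 after GC removal. Bcl2l1/Bad changed by 0.335 with an interval from 0.19 to 0.48.

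The remaining Mcl1 ratios were close to level or not stable. Mcl1/Bcl2l11 changed by -0.13 (interval from -0.21 to -0.06), and Mcl1/Pmaip1 by -0.27 with an interval from -0.69 to 0.15 that includes 0. Mcl1/Bbc3 had 0.66 (interval from 0.52 to 0.80) as deposited and 0.12 after GC removal. The ratios with Bcl2 on top were lower and those with Bak1 below were higher in the library labelled KO, and these 4 pairs rest on only 6 genes, since Bcl2 and Bak1 each enter 2 of them.

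**Figure D5:**
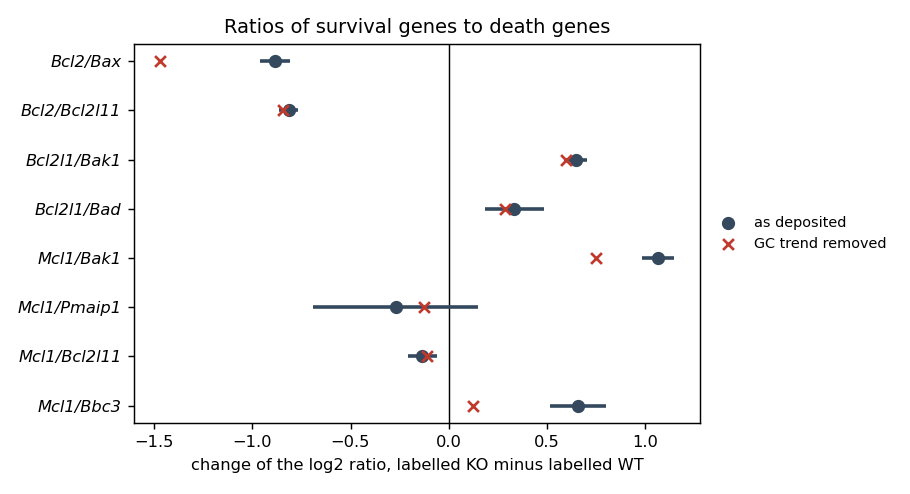
Change of the log2 ratio of a survival gene to a partner, labelled KO minus labelled WT, as deposited (dark circles, with the 95% interval of read counting) and after removal of the GC trend (red crosses). The Bcl2 ratios lie at -0.88 and -0.815, the ratios to Bak1 at 0.65 and 1.07, and no cross lies on the other side of 0 from its circle.

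The other BCL2 family genes were mostly scarce, and 3 of 14 (Bcl2a1c, Bcl2l10 and Hrk) were listed at 0 in both libraries. Of the 11 that passed the filter, 1 was at least 2-fold higher and 2 at least 2-fold lower. Over all genes that passed, these shares were 7.37% and 9.12%. The median log2 fold change of the 11 was -0.34, or -0.09 with the GC trend removed, beside a deposited -0.009 over all genes that passed. Bcl2a1b, a copy of the survival gene A1 that activated lymphocytes and myeloid cells express, had log2 values of 7.58 and 8.88, a log2 fold change of 1.30 (counting interval 1.06 to 1.55). Bcl2a1d had 0.73 (0.55 with the GC trend removed, under 1.5-fold) and Bcl2a1a 0.486. The Bcl2a1 copies are nearly identical and reads with several alignments were counted, so these values are uncertain per copy and may hold the same reads. B cell markers moved in the same direction, with all 4 higher, and of 5 monocyte or macrophage markers 1 was higher, 3 were lower and Adgre1 was listed at 0 in both, so the part of other cells in the Bcl2a1 values was not tested.

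Bik, a BH3-only gene, had 6.46 and 5.12, a log2 fold change of -1.34 from about 90 and 35 reads, with an interval from -1.97 to -0.79. Its value was -0.98 after GC removal. Bcl2l2, which encodes the survival protein BCL-W, had -0.79 (interval from -1.17 to -0.42), and Bcl2l14 had -0.71. Bcl2l15 was also lower, with 5 and 1 reads. Bcl2l13 had the largest deposited value of this list, 11.55 and 11.305. For Bmf, the remaining BH3-only gene with more than a few reads, the values were 6.79 and 7.05, and the interval of its log2 fold change from -0.11 to 0.64 includes 0.

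Genes that act after the mitochondrial membrane is opened were listed together with the outer-membrane channel genes Vdac1, Vdac2 and Vdac3. Of these 17 genes, 16 were higher as deposited, the Vdac genes among them, beside 48.8% of the well-expressed genes. With the GC trend removed 11 were higher, beside 49.9%, and the counts were 15 after quantile normalization and 17 on the Actb scale. The median log2 fold change was 0.13 as deposited, and none was at 2-fold. Past 1.5-fold were Birc2 (0.91) and Birc3 (0.65), the cIAP ubiquitin ligases, and Casp6 (0.775), an executioner caspase, which makes 3 of 17 beside the 3.95% of well-expressed genes given above. With the GC trend removed Birc3 had 0.53, which is under 1.5-fold. The parts of the apoptosome were near level, with Apaf1 at 0.05, Casp9 at 0.21 and Cycs at 0.27. Vdac1, a channel of the outer membrane and the gene with the largest deposited value here, had 0.13.  Birc5, which encodes survivin, was the one lower gene as deposited (-0.099).

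Of 9 regulators of the proteins, none reached 1.5-fold, beside 3.95% higher and 6.29% lower over the well-expressed genes. Ywhaz, a 14-3-3 gene and the list's largest deposited value, had 0.50. For the kinases whose products phosphorylate BAD, the values were -0.48 for Pim2, -0.19 for Pim1 and -0.15 for Akt1, and with the GC trend removed Pim1 and Akt1 turned to 0.0099 and 0.23. The ubiquitin ligase gene Huwe1, whose product degrades MCL1, had 0.04, and Usp9x, whose product removes ubiquitin from it, had 0.30. With the GC trend removed these were -0.05 and 0.06.

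Among 9 transcription factors known to act on member genes, 1 was lower past 1.5-fold, beside 6.29% of the well-expressed genes. The 2 higher and 7 lower genes became 5 and 4 with the GC trend removed. Of the well-expressed genes, 48.8% were higher as deposited and 49.9% with the GC trend removed. E2f1 had -0.77, or -0.46 after GC removal. Trp53 had -0.21, Foxo1 -0.20 and Foxo3, a known activator of Bcl2l11 and Bbc3, -0.015. Myc, the largest deposited value of the list at 17.23 and 17.11, had -0.12. Of 9 further p53 target genes, 7 were higher and 2 lower, with a median of 0.21 (6 and 3, and 0.32, with the GC trend removed). The shares of well-expressed genes beside these are again 48.8% and 49.9% higher. Mdm2 and Zmat3 had 0.64 each (0.52 and 0.54 with the GC trend removed, under 1.5-fold) and Cdkn1a, with the largest deposited value, 0.39, whereas Phlda3 had -1.55 (interval from -1.84 to -1.28, and -1.08 with the GC trend removed). Eda2r had 7 and 2 reads. Of the p53 targets among the members, Bax had 0.51, Pmaip1 0.577 and Bbc3 -0.35.

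Genes of the cytokine receptors that sustain T cell survival had a median log2 fold change of -0.44 over 5 genes, or -0.08 with the GC trend removed. Il2rb, shared by the receptors of IL-2 and IL-15, had 16.60 and 15.93, a log2 fold change of -0.67 (-0.55 after GC removal). The common gamma chain gene Il2rg had -0.44 and its kinase gene Jak3 -0.45, the latter turning to 0.01 after GC removal. Il2ra had 0.25 and Il7r 0.15, and after GC removal 0.05 and -0.08. Over the 60 genes of these 6 lists that passed the filter, 1 was at least 2-fold higher and 4 at least 2-fold lower. The shares given above were 7.37% and 9.12% over all genes, and 0.461% and 0.743% over the well-expressed genes. Most of the 60 were well expressed, but the genes past 2-fold (Bcl2a1b, Bik, Bcl2l15, Phlda3 and Eda2r) were not.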

How the data were processed

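RNA-sequencing of 1 Th1 library labelled WT and 1 labelled Chi3l1 KO was analysed; WT and KO below are these labels. As the study's methods describe, the authors made libraries from polyadenylated RNA, mapped paired reads with TopHat, counted unique and multiple alignments, used edgeR, and applied a global normalization between samples; the submitters' processing notes name the build mm10. The deposited values are taken as log2 of 1 plus a normalized count, an inference from their even steps at low values (1 read was worth 0.97 in WT and 0.969 in KO), and edgeR was not run here. Since the normalized count of 1 read spans 0.921 to 0.957 in WT, rebuilt reads are approximate.

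The log2 fold change was the value of KO minus that of WT, with no further pseudocount. Counting intervals (95%) were exact binomial (Clopper-Pearson) for single genes and normal approximations on the log scale for ratios. Genes at 1 or above (log2) in either library were counted past 2-fold and 1.5-fold. Coordinates, lengths and GC content were read from the GENCODE M21 annotation of GRCm38, in which 96.04% of these genes were found. The GC trend was the median fold change in 20 GC bins over well-expressed genes (8 or above in both libraries). It was interpolated between the bins and held at the value of the end bin beyond them. Members and gene lists were chosen with earlier results of these data known. Of each other list, genes past 1.5-fold with a log2 value of at least 4 and the gene with the largest value are named, with others given beside them chosen after their values were seen. Scripts were tested on simulated data. Analyses ran in Python 3.11.15 (scipy 1.17.1, numpy 2.4.6, pandas 2.3.3), and figures were drawn with matplotlib 3.10.9. Alternatives were a pseudocount of 0.1, median-ratio, quantile and Actb scaling, GC removal, other fold thresholds, filters and transcript lengths. The naïve samples were not analysed here, and single values of some listed genes are not reported here.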

Additional observations from a re-analysis of the deposited data

How the results depend on the processing

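With 1 library per genotype, replicate error is unknown and no call rests on a test. No paired analysis was possible because each genotype has 1 library. A pseudocount of 0.1 and median-ratio scaling kept all 10 member values within their counting intervals. Bcl2l1 changed sign when scaled to Actb (0.002991), which moved the median of all genes by 0.107, and with the GC trend removed (0.0866), as did Bbc3 (0.111). The count of 0 members past 2-fold held under every alternative that kept this threshold. The 1.5-fold threshold gave 1 lower, and the lowest of the thresholds tried gave 3 higher and 4 lower. The shares of all genes and of well-expressed genes past that lowest threshold were not counted. The member counts there have no background beside them, so they do not set the family apart from other genes. With the GC trend removed, an alternative at 1.5-fold added after seeing the data, 1 member (Bax) was higher and 0 lower. This count takes the GC content of the longest coding transcript. With other coding transcripts Mcl1 reached 0.77 and Bcl2l11 0.68, both past 1.5-fold. The share of all genes past 1.5-fold with the GC trend removed was not counted. Of the 60 other listed genes that passed the filter, 7 were higher and 8 lower past 1.5-fold as deposited. The shares were 13.4% and 16.2% over all genes. Over the well-expressed genes, a group that holds most of the 60, they were 3.95% and 6.29%. Of the listed genes past 1.5-fold, Birc2, Birc3, Casp6, Mdm2 and Zmat3 (higher) and E2f1 and Il2rb (lower) were well expressed. With the GC trend removed, the counts past 1.5-fold were 4 and 6. These have no like share beside them, since the shares given here are of deposited values. Removal of the GC trend moved the log2 ratio change of Bcl2/Bax to -1.471, of Mcl1/Bak1 to 0.748, of Mcl1/Bbc3 to 0.124 and of the class balance to -0.261. Quantile normalization moved Bcl2/Bax to -0.793 and Mcl1/Bcl2l11 to -0.2155. With the length of all exons, chosen after seeing the data, the class balance was -0.00681. For the shifts other than those set by a length, scale or threshold, the cause was not tested. Low read numbers limit Pmaip1, Bik and the Bcl2a1 genes.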
